A study of Mus musculus with 13 samples.

Results

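The genes of the smooth muscle contractile apparatus were followed in UG26-1B6, a stromal cell clone made from the urogenital ridge of mouse embryos at midgestation and used as a feeder layer for blood stem cells. The set held 10 genes: Acta2, Actg2, Tagln, Cnn1, Myh11, Myl9, Tpm1, Tpm2, Cald1 and Lmod1, of 18193 genes with a probe set of a single symbol on the array. Each gene was read from its probe set with the highest mean over all 13 arrays. Stroma carrying LSK cells was measured after 1 day (3 arrays), 2 days (3 arrays) and 3 days (2 arrays). A medium control, harvested 24 h after a change of medium with no LSK cells, gave 2 arrays, and day 0 cells, collected by trypsin and washed, gave 3 arrays. LSK cells are the Lin- Sca-1+ c-Kit+ fraction of blood-forming cells, which is rich in stem and progenitor cells. Before LSK cells were added, the stroma was grown to confluence and irradiated with 30 Gy. The sources used here do not say whether the medium control and day 0 cells were irradiated, or whether LSK cells were removed before RNA was made. All arrays came from 1 clone, and only the day 0 cells are described as detached with trypsin, so handling and time cannot be told apart against day 0. Against the medium control or day 0, any difference in irradiation cannot be told apart from the LSK cells. The titles call the replicates biological and the design text calls them technical, so every p-value measures the spread between these arrays alone. In co-culture, fewer stromal cells in a sample and less RNA per stromal cell cannot be told apart.

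Smooth muscle cells contract when myosin filaments pull on thin filaments built of actin and tropomyosin. Phosphorylation of the regulatory light chain of myosin switches contraction on, and caldesmon and calponin on the thin filament hold it back. Many of these genes are driven by serum response factor (SRF) with its coactivators myocardin and the MRTF proteins, which move to the nucleus when actin polymerises on a stiff surface. For that reason part of the set, Acta2, Tagln, Tpm1 and Cald1 among them, is also known from fibroblasts, myofibroblasts and other spread cells, while Myh11, Cnn1, Actg2 and Lmod1 mark more mature smooth muscle.

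Only part of the contractile apparatus was clearly measured in the clone. On the deposited log2 scale, whose lowest value was 2.28, Myh11, the smooth muscle myosin heavy chain, stayed at 2.28 on all 13 arrays with both of its probe sets. Cnn1, the thin filament inhibitor calponin, reached at most 2.2846. Actg2, the actin of gut and other visceral muscle, left 2.28 on a single array, LSK day 1 replicate 1, where it read 2.34. These 3 genes did not pass the filter on low values and were not tested. Lmod1, an actin nucleator of muscle, passed the filter but lay between 2.46 and 3.51. Other smooth muscle markers were low as well. Myocd, which encodes myocardin, reached at most 2.36, the muscle intermediate filament gene Des 2.86, Smtn, an actin-binding marker of contractile smooth muscle, 3.46, and Synpo2, an actin bundling protein of muscle, 3.24. The other 6 members lay between 3.50 and 13.51 over all 13 arrays. Actin, tropomyosin, caldesmon, transgelin and light chain transcripts were thus measured, while the defining markers of mature smooth muscle read low. A low reading does not show that a gene is silent. Acta2 probe sets 1444105_at and 1456658_at reached at most 2.55 and 2.28, while the one that represents Acta2 read 10.43 to 12.43. Cnn1 and Actg2 had 1 probe set each.

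Proximal promoters are shown for Acta2 and Myl9, both measured and both with a match to the SRF motif, and for Cnn1, which stayed at the lowest value. They come from RefSeq on build GRCm38.p6, cover the 250 bases before the start of the gene and read 5′ to 3′ on the strand of the gene. Acta2 is on the minus strand at chr19:34255374-34255623, Myl9 on the plus strand at chr2:156775214-156775463 and Cnn1 on the plus strand at chr9:22099003-22099252. Capitals mark matches to the CArG box, the DNA motif of SRF, or to a version that allows 1 G or C among its 6 middle letters.
Acta2: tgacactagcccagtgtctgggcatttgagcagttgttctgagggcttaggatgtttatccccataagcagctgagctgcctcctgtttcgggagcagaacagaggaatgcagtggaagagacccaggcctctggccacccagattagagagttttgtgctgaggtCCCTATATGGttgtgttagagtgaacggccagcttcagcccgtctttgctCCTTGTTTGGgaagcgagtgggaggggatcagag
Myl9: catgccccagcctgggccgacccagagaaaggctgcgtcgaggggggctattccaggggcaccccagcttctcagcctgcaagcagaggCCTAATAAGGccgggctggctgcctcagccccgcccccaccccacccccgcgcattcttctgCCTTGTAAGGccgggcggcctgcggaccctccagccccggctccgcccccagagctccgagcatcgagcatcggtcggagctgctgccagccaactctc
Cnn1: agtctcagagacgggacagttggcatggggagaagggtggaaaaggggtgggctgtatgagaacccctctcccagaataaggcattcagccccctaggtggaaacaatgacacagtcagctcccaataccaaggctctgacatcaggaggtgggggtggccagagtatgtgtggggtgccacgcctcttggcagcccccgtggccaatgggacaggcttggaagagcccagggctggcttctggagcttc
The strict CArG box, which reads the same on both strands, is in 1.47% of 32851 promoters in the table, and the looser one in 8.59%. Myl9 had 1 strict match, CCTAATAAGG, and 1 loose match, CCTTGTAAGG. Acta2 had 2 loose matches, CCCTATATGG and CCTTGTTTGG. Promoters of 7 of the 10 members were in the table, and those of Cnn1, Tpm1, Tpm2, Cald1 and Lmod1 held neither version in this window. A match is a stretch of letters, and binding was not measured.

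Some co-culture arrays stood apart in RNA quality, and all co-culture groups held blood cell RNA. The gap between the 3′ and 5′ control probe sets of beta-actin widens when RNA is short. It was 9.79 on LSK day 2 replicate 1, 6.67 on LSK day 3 replicate 2 and 4.16 on LSK day 2 replicate 2. The other 10 arrays had gaps of 2.18 to 3.13. For another control gene, Gapdh, the gap was 8.96 on LSK day 2 replicate 1 and 5.79 on LSK day 3 replicate 2. On LSK day 2 replicate 2 the Gapdh gap was 3.11, inside the 2.15 to 3.82 of those 10 arrays. The mean log2 level of haematopoietic markers, over the 13 of 14 that passed the filter, was 4.10 to 5.08 on LSK day 1 arrays, 5.48 to 9.94 on LSK day 2 and 5.998 to 7.37 on LSK day 3, against 2.98 to 3.08 in the medium control and 3.24 to 3.38 at day 0. The poly-A spike-in controls averaged 10.07 to 14.44 over all LSK arrays, 4.63 to 4.88 in the medium control and 5.45 to 8.55 at day 0. All LSK arrays lay above the others, so RNA input or processing cannot be told apart from LSK cells in those comparisons. The mean of the fibroblast markers (5 of 7 past the filter) ran over 6.97 to 8.37 on LSK day 1, 4.34 to 7.17 on LSK day 2 and 7.34 to 7.45 on LSK day 3, against 8.29 to 8.35 in the medium control and 8.68 to 10.13 at day 0. That of the pericyte markers (4 of 6) ran over 7.61 to 8.13, 5.52 to 8.01 and 7.58 to 7.97 on LSK days 1, 2 and 3, against 6.19 to 6.52 in the medium control and 7.16 to 7.96 at day 0. The part of these markers in the results was not tested. The epithelial markers (3 of 5) averaged under 4 on all arrays, and of the other lists skeletal muscle had 2 of 8 genes past the filter, heart muscle 1 of 6 and endothelium 1 of 5. The endothelial gene read 10.40 to 10.42 in the medium control, 5.89 to 6.66 at day 0 and 2.56 to 10.16 over the LSK arrays. The heart muscle gene read 5.76 to 5.97, 3.64 and 3.86 to 7.97 in the same order. Neither was called in any comparison.

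The day 1 samples set a day with LSK cells beside a day after a change of medium. The actin and tropomyosin genes were highest in the medium control. Acta2, the smooth muscle alpha-actin, measured 12.05, 11.004 and 11.22 in LSK day 1 stroma, 12.38 and 12.43 in the medium control and 11.97, 11.28 and 11.14 at day 0. Tpm1, alpha-tropomyosin, measured 10.78, 9.90 and 10.27 in LSK day 1 stroma, 12.59 and 12.70 in the medium control and 11.74, 11.32 and 10.91 at day 0. Tpm2, beta-tropomyosin, measured 11.59, 11.45 and 11.26 in LSK day 1 stroma, 12.27 and 12.11 in the medium control and 11.83, 11.23 and 11.54 at day 0. For Acta2, Tpm1 and Tpm2 both medium arrays lay above each of the other 11 arrays, the day 2 and day 3 co-cultures included.

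The regulators of the thin filament and the myosin light chain were less alike. Cald1, caldesmon, measured 12.57, 12.70 and 12.61 in LSK day 1 stroma, 13.10 and 13.34 in the medium control and 13.51, 13.33 and 12.58 at day 0. Its LSK day 1 arrays lay below both medium arrays, and day 0 replicate 3 lay among the LSK arrays. Tagln, transgelin, an actin-bundling protein and early smooth muscle marker, measured 7.14, 6.52 and 7.11 in LSK day 1 stroma, 7.86 and 7.55 in the medium control and 7.73, 8.34 and 7.95 at day 0. All 3 LSK arrays lay below the other 5, while medium and day 0 overlapped. Myl9, the regulatory light chain, measured 7.86, 5.34 and 6.22 in LSK day 1 stroma, 7.54 and 7.33 in the medium control and 6.34, 6.92 and 6.18 at day 0. Its LSK arrays spread over both of the other groups. Lmod1 read 2.88 to 3.51 in LSK day 1 stroma, 2.84 to 2.88 in the medium control and 2.88 at day 0.

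**Figure D1:**
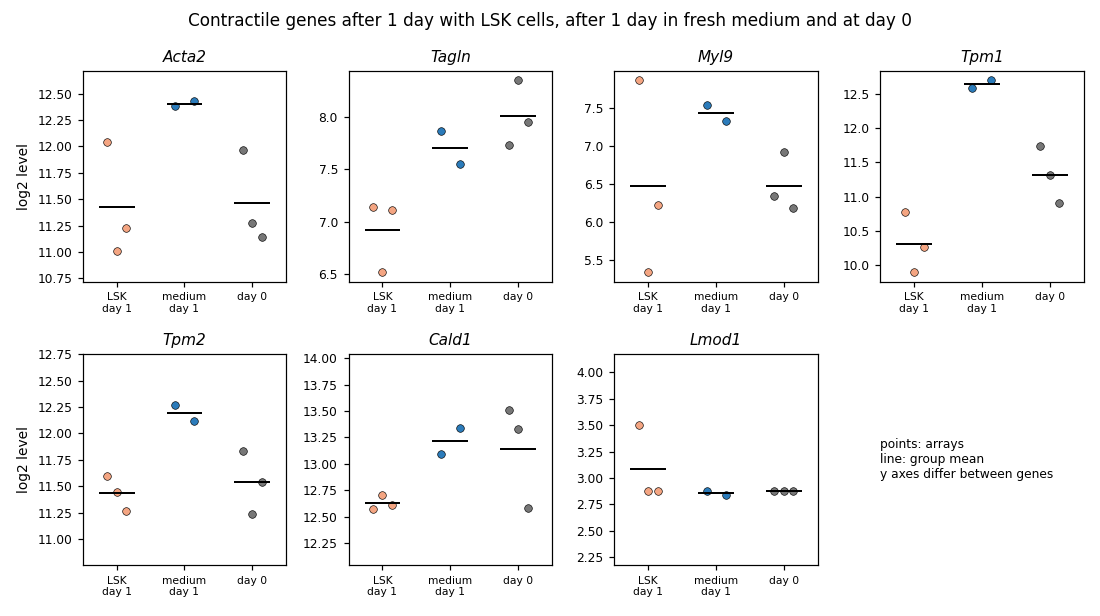
Log2 level of the 7 members past the filter on the day 1 and day 0 arrays. Points are arrays and lines are group means, with LSK day 1 at the left, the medium control in the middle and day 0 at the right, and axes that differ between genes. The medium arrays are the highest for Acta2, Tpm1 and Tpm2, and the LSK arrays the lowest for Tagln.

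Against the medium control, LSK day 1 stroma had lower means for 6 of the 7 tested members, but none passed limma's test at an adjusted p of 0.05 over 12205 genes. In that comparison 5.2% of all genes were called. At an unadjusted p under 0.05 there was 1 member, Tpm2, against 20.9% of all genes. Tpm2 averaged 11.43 ± 0.17 (SD, n = 3) in LSK day 1 stroma and 12.19 ± 0.11 (SD, n = 2) in the medium control, a log2 difference of -0.76 ± 0.30 (SE) with an adjusted p of 0.188 in limma. Tpm1 had the widest difference, -2.33 ± 1.16 (adjusted p = 0.302), with means of 10.32 ± 0.44 in LSK day 1 stroma and 12.64 ± 0.08 in the medium control. Acta2 differed by -0.98 ± 0.46 (adjusted p = 0.263) and Cald1 by -0.59 ± 0.44 (adjusted p = 0.556). Acta2, Cald1, Tagln, Tpm1 and Tpm2, 5 of the 7, had all LSK arrays below both medium arrays, where 31.8% of all genes did so and 30.7% lay wholly higher. The median of the 7 differences was -0.78, against 0.00 over all genes.

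The call depended on which arrays set the spread. With only the groups compared in the fit, Cald1, Tpm1 and Tpm2 were called lower in LSK day 1 stroma than in the medium control, as were 19.6% of all genes. With arrays weighted by how closely they followed their group means, all tested members but Lmod1 were called lower. That fit called 27.5% of all genes lower and 52.6% in either direction. Leaving out the 3 or the 2 arrays with the widest beta-actin gap, none of which is in this comparison, changed the spread and with it the calls. Tpm1 was then called lower in both fits, and Tpm2 in the fit without 3 arrays. The differences of Tpm1 (-2.33) and Tpm2 (-0.76) stayed the same. These fits leave at least 1 co-culture group with a single array, so no share of members is set against all genes.

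Against day 0, the medium control had higher means for 5 of the 7 tested members, and none passed the test in limma, where 0.328% of all genes were called. None had an unadjusted p under 0.05, against 9.45% of all genes. Acta2 averaged 12.41 ± 0.03 (SD, n = 2) in the medium control and 11.46 ± 0.44 (SD, n = 3) at day 0, a log2 difference of 0.94 ± 0.46 (adjusted p = 0.590). Tpm2 differed by 0.66 ± 0.30 (adjusted p = 0.553) and Tpm1 by 1.32 ± 1.16 (adjusted p = 0.906). In Acta2, Myl9, Tpm1 and Tpm2 the medium arrays lay above all day 0 arrays, 4 of the 7 members where 20.6% of all genes did so, and no member lay wholly lower (22.7% of all genes). With array weights Acta2, Tpm1 and Tpm2 were called higher in the medium control, in a fit that called 14.2% of all genes higher and 29.4% in either direction.

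LSK day 1 stroma against day 0 gave no member past the threshold in limma, against 2.15% of all genes, and none at an unadjusted p under 0.05, against 17.3%. Tagln averaged 6.92 ± 0.35 in LSK day 1 stroma and 8.01 ± 0.31 at day 0 (SD, n = 3 each), a log2 difference of -1.08 ± 0.85 (adjusted p = 0.622). Tpm1 differed by -1.005 ± 1.04 (adjusted p = 0.757) and Cald1 by -0.51 ± 0.40 (adjusted p = 0.615). The differences of Acta2 (-0.04), Myl9 (-0.00) and Tpm2 (-0.10) turned positive when arrays were rescaled. Tagln and Tpm1 were lower on every LSK day 1 array than on any day 0 array, as were 21.3% of all genes, while no member was wholly higher (17.7% of all genes). Tagln was called with array weights, 1 of 7 members in a fit that called 29.4% of all genes. It was also called without the 3 arrays of widest beta-actin gap, which leaves days 2 and 3 with 1 array each. Its difference was still -1.08 there.

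Over the days of co-culture the means of all 7 tested members were lowest on day 2, well under day 0 in Tagln, Tpm1, Cald1 and Myl9 and closer to it in Acta2, Tpm2 and Lmod1. Tagln averaged 8.01 ± 0.31 at day 0, 6.92 ± 0.35 on LSK day 1, 4.77 ± 2.03 on LSK day 2 and 5.74 ± 1.20 on LSK day 3. The spread of day 2 came from single arrays, which read 3.50, 3.70 and 7.11, and the day 3 arrays read 6.59 and 4.89. Replicate 3 of day 2 thus lay within the range of LSK day 1, with the other day 2 arrays more than 3 log2 units lower. Tpm1 averaged 11.32 ± 0.41 at day 0, 10.32 ± 0.44 on LSK day 1, 8.05 ± 2.48 on LSK day 2 and 9.29 ± 1.48 on LSK day 3. Its day 2 arrays read 5.48, 8.25 and 10.41 and its day 3 arrays 10.34 and 8.24. Cald1 averaged 13.14 ± 0.49 at day 0, 12.63 ± 0.07 on LSK day 1, 11.77 ± 0.80 on LSK day 2 and 12.75 ± 0.44 on LSK day 3. Its day 2 arrays read 11.16, 11.47 and 12.68, again with replicate 3 apart, and its day 3 arrays 12.44 and 13.06. Myl9 averaged 6.48 ± 0.39 at day 0, 6.48 ± 1.28 on LSK day 1, 5.13 ± 1.79 on LSK day 2 and 5.86 ± 0.55 on LSK day 3, with 4.67, 3.62 and 7.11 on the day 2 arrays and 6.24 and 5.47 on the day 3 arrays.

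Acta2 and Tpm2 had narrow ranges. Acta2 averaged 11.46 ± 0.44 at day 0, 11.42 ± 0.55 on LSK day 1, 11.22 ± 0.73 on LSK day 2 and 11.76 ± 0.31 on LSK day 3, and every co-culture group overlapped day 0. The day 2 arrays read 11.37, 10.43 and 11.87. Tpm2 averaged 11.54 ± 0.30 at day 0, 11.43 ± 0.17 on LSK day 1, 11.19 ± 0.51 on LSK day 2 and 11.37 ± 0.19 on LSK day 3, with 10.99, 10.82 and 11.78 on the day 2 arrays. Day 2 replicate 3 was the highest of its group for all 7 tested members.

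**Figure D2:**
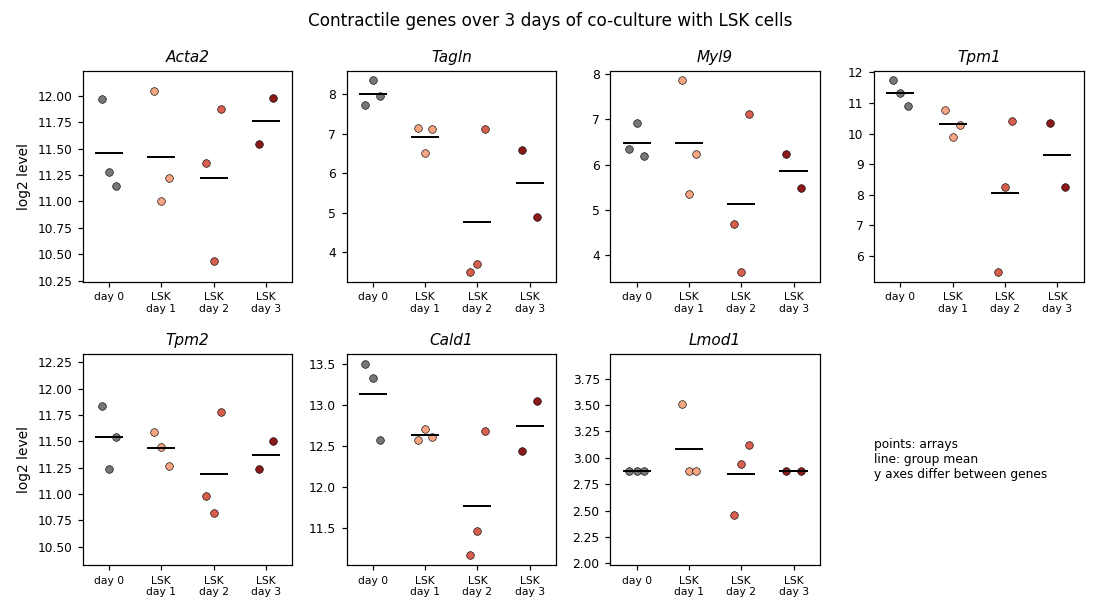
Log2 level of the 7 tested members at day 0 and on days 1, 2 and 3 of co-culture with LSK cells. Points are arrays, lines are group means and axes differ between genes. For Tagln, Tpm1, Cald1 and Myl9 replicate 3 of day 2 is above the other day 2 arrays, while Acta2 and Tpm2 overlap day 0 throughout.

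In LSK day 2 stroma against day 0 none of the 7 tested members passed the test in limma, where 2.26% of all genes were called. At an unadjusted p under 0.05 there were 3, all lower on day 2, against 26.3% of all genes. These were Tagln, with a log2 difference of -3.24 ± 0.85 (unadjusted p = 0.0039, adjusted p = 0.0752 in limma), Cald1 with -1.37 ± 0.40 (adjusted p = 0.0897) and Tpm1 with -3.27 ± 1.04 (adjusted p = 0.107). The differences of Myl9, Tpm2 and Acta2 were -1.34 ± 0.86, -0.34 ± 0.27 and -0.24 ± 0.41. In Tagln and Tpm1 every day 2 array lay below every day 0 array, as in 16.2% of all genes, and no member lay wholly higher (6.46% of all genes). The median of the 7 differences was -1.34, against -0.29 over all genes, and after centring of the arrays the medians were -0.57 and 0.49. Acta2, Tpm2 and Lmod1 changed sign under that centring.

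The arrays of day 2 decide this comparison. Without replicate 3, Tagln (adjusted p = 0.000567), Cald1 (0.00378), Tpm1 (0.00602) and Myl9 (0.0338) were called lower on LSK day 2 than at day 0, in a fit that called 22.6% of all genes lower and 28.7% in either direction. Without replicates 1 and 2 and day 3 replicate 2, the arrays with the widest beta-actin gap, Tagln differed by -0.90 (adjusted p = 0.284), Tpm1 by -0.91 (adjusted p = 0.383) and Cald1 by -0.46 (adjusted p = 0.634), while Myl9 differed by 0.63. In that fit days 2 and 3 have 1 array each, and a lone array is taken to vary as the other groups do. All day 2 arrays had more blood cell RNA than day 0, replicate 3 with its high member values included. Mpo, a myeloid granule enzyme, read 12.36, 8.54 and 8.96 on LSK day 2 and 3.53 on each day 0 array. The part of RNA quality or blood cell RNA in the result was not tested.

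**Figure D3:**
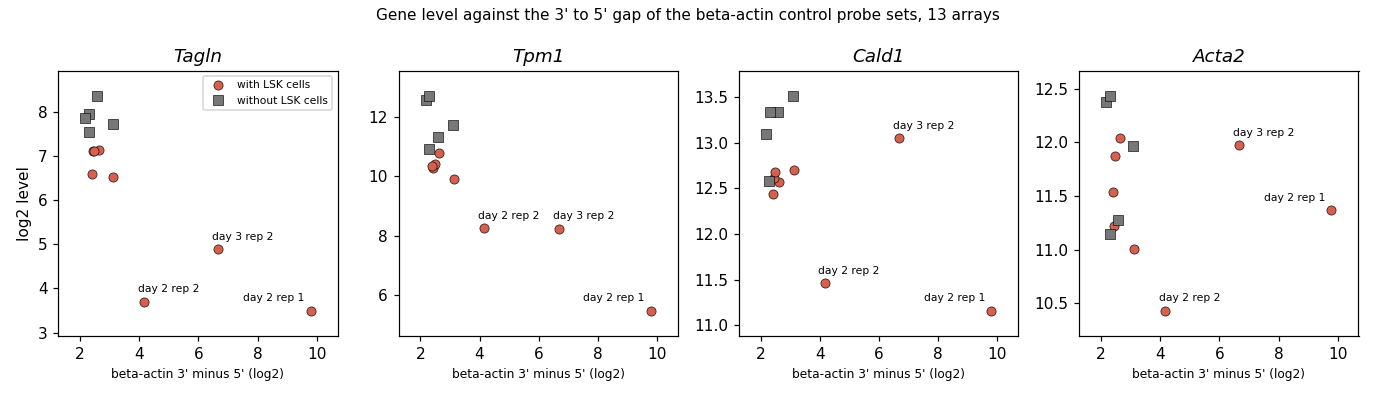
Log2 level of Tagln, Tpm1, Cald1 and Acta2 on each of the 13 arrays (vertical axis) against the log2 gap between the 3′ and 5′ control probe sets of beta-actin (horizontal axis). Circles are arrays with LSK cells and squares arrays without. The 3 arrays with gaps of 4.16, 6.67 and 9.79 are the 3 lowest for Tagln and Tpm1, whereas on day 3 replicate 2 Cald1 (13.06) and Acta2 (11.98) lie among the other arrays.

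LSK day 3 stroma against day 0 gave none of the 7 in limma, against 0.819% of all genes. Tagln was the only member at an unadjusted p under 0.05 (13.8% of all genes), lower on day 3 with a log2 difference of -2.27 ± 0.96 (adjusted p = 0.333). Tpm1 differed by -2.03 ± 1.16 (adjusted p = 0.495), Cald1 by -0.39, Myl9 by -0.62, Tpm2 by -0.17 and Acta2 by 0.30. In Tagln and Tpm1 both day 3 arrays lay below every day 0 array, as in 20.5% of all genes, and no member lay wholly higher (15.0% of all genes). Tagln was called without day 2 replicate 3 (adjusted p = 0.0419), with 2.83% of all genes. Without the 3 arrays of wide beta-actin gap, which leaves day 3 with a single array, the difference of Tagln was -1.42.

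Among co-cultures, LSK day 2 against LSK day 1 gave no member in limma, against 0.00819% of all genes. Tagln alone had an unadjusted p under 0.05 (12.6% of all genes), with a log2 difference of -2.15 ± 0.85 (adjusted p = 0.379), and Tpm1 differed by -2.27 ± 1.04 (adjusted p = 0.398). No member had groups without overlap, where 9.89% of all genes lay wholly lower on day 2 and 2.5% wholly higher. Without day 2 replicate 3, Cald1, Tagln and Tpm1 were called lower on day 2, as were 13.1% of all genes. LSK day 3 against LSK day 1 gave no member in limma (0.00819% of all genes) and none at an unadjusted p under 0.05 (2.93%), with differences between -1.18 for Tagln and 0.34 for Acta2. Again no member had groups without overlap, where 11.5% of all genes lay wholly lower on day 3 and 8.28% wholly higher. Every comparison against day 0 shares its 3 arrays, and both of these share the LSK day 1 arrays.

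**Figure D4:**
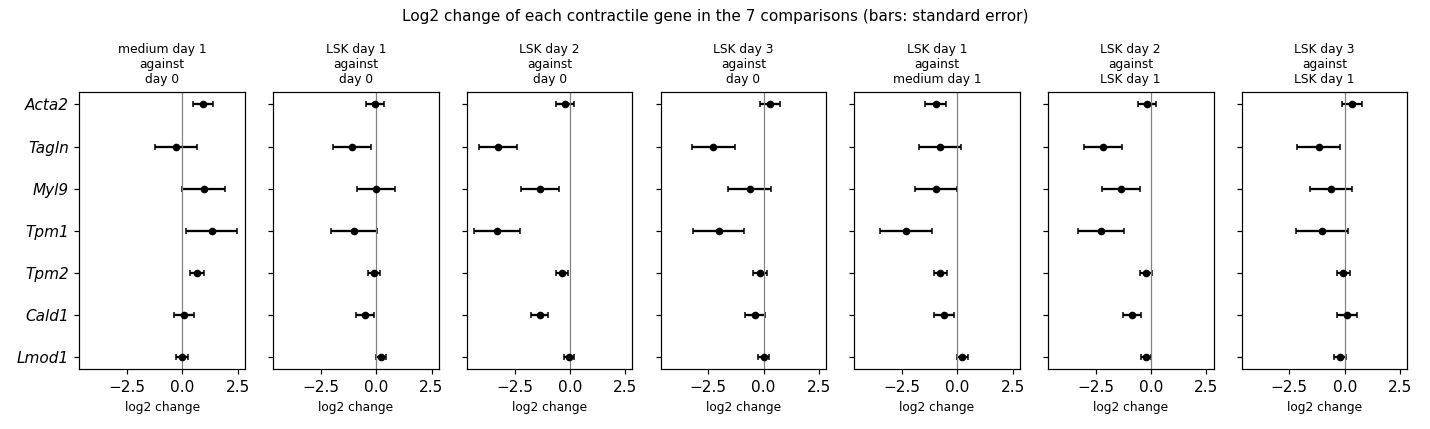
Log2 difference with its standard error for the 7 tested members in each of the 7 comparisons. The first named group of a comparison is on top of the difference, so a value under 0 is lower there. The differences furthest under 0 belong to Tpm1 (-3.27) and Tagln (-3.24) on LSK day 2 against day 0, and no value passed the adjusted threshold.

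The members were covered by 23 probe sets, of which 15 passed the filter, and none of the 15 was called in any comparison when 25216 probe sets were tested on their own. Probe sets of 1 gene did not all run alike. In Cald1 they split: its probe set 1433147_at measured 8.63, 10.24 and 9.89 in LSK day 1 stroma, 4.76 and 3.67 in the medium control and 7.79, 8.65 and 8.62 at day 0. Its probe set 1424770_at measured 7.84, 8.68 and 7.09 in LSK day 1 stroma, 10.68 and 10.71 in the medium control and 9.96, 6.79 and 6.28 at day 0. The medium control was thus lowest on the first and highest on the second. Probe set 1424768_at averaged 5.98 in LSK day 1 stroma, 8.14 in the medium control and 6.97 at day 0. The representative probe set of Cald1 also had its highest mean in the medium control. Of those past the filter, 1433147_at alone went the other way. LSK day 1 against medium gave 5.37 ± 1.95 for 1433147_at (adjusted p = 0.144) and -2.83 ± 1.26 for 1424770_at (adjusted p = 0.244). Which transcripts each probe set reads is not given in the files, so these are values of probe sets and not of named caldesmon forms.

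**Figure D5:**
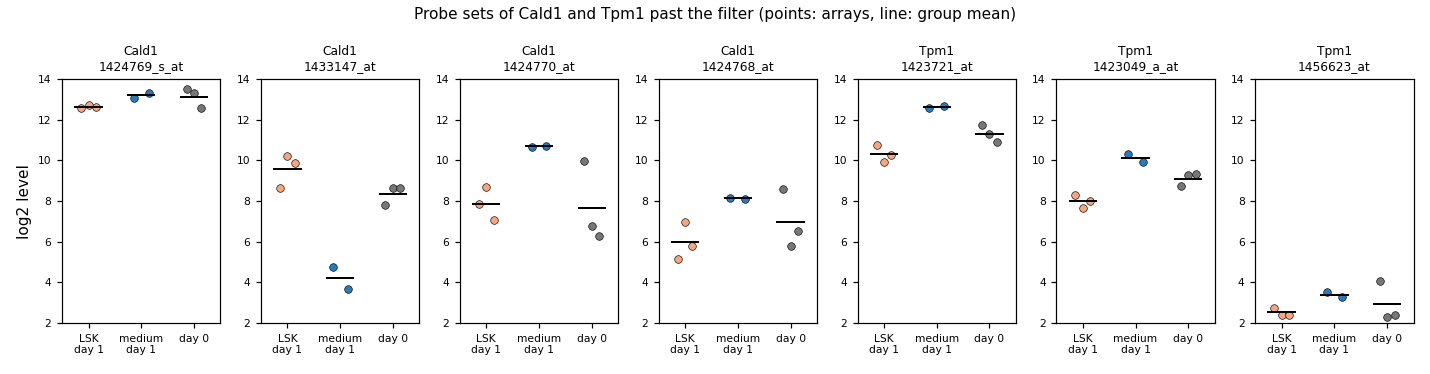
Log2 level of 4 Cald1 and 3 Tpm1 probe sets in LSK day 1 stroma, the medium control and at day 0. Points are arrays. The Cald1 probe set 1433147_at is lowest in the medium control and 1424770_at is highest there, while all 3 Tpm1 probe sets have their highest mean in the medium control.

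The brighter probe sets of Tpm1 and Tpm2 had the same order of day 1 and day 0 means as the ones that represent them. Tpm1 probe set 1423049_a_at ran over 7.67 to 8.31 in LSK day 1 stroma, 9.93 to 10.30 in the medium control and 8.72 to 9.31 at day 0. Its LSK day 2 arrays ranged from 2.39 to 8.05, and its log2 difference from day 0 was -4.72 ± 1.24 (adjusted p = 0.0828). Tpm2 probe set 1425028_a_at averaged 11.43 ± 0.09 in LSK day 1 stroma, 12.38 ± 0.05 in the medium control and 11.59 ± 0.29 at day 0. Probe sets near the lowest value varied more, as Tpm1 1456623_at, which read 4.08 on day 0 replicate 1 against 3.51 and 3.29 in the medium control. The Tpm2 probe set 1449577_x_at differed by -1.37 ± 0.41 between LSK day 2 and day 0 (adjusted p = 0.109). The representative probe sets of Acta2 and Cald1 carry the maker's suffix for probes that can match several transcripts, so signals of related actins cannot be told apart there.

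The wider pathway was tested in the same fits, in which 0.00819% to 5.2% of all genes were called in a comparison. Among 20 actin, myosin and tropomyosin relatives, 14 were tested and 1 was called in any comparison. This was Tagln2, a transgelin found in many cell types including blood cells, which was called higher on LSK day 2 than at day 0. Its uncalled differences from day 0 were 2.01 on LSK day 1, 2.05 on LSK day 3 and 1.08 in the medium control. It measured 13.18, 11.76 and 11.16 on LSK day 2 and 9.33, 9.50 and 10.06 at day 0, a log2 difference of 2.40 ± 0.46 (adjusted p = 0.0373). The call held in 4 of 13 fits that left out a single array. The other Tagln2 probe set differed by 0.84, and without the 3 arrays of wide beta-actin gap the adjusted p was 0.0946. Among 15 SRF and myocardin regulators, 13 were tested and Prrx1, a mesenchymal homeobox factor, was called. Prrx1 fell on LSK day 1, with 11.26, 10.14 and 10.15 against 13.14, 12.93 and 12.49 at day 0 (log2 difference -2.34 ± 0.50, adjusted p = 0.0497). It also fell on LSK day 2, to 8.76, 9.11 and 10.77 against the same day 0 arrays (log2 difference -3.31 ± 0.50, adjusted p = 0.0194), where the adjusted p was 0.130 without those 3 arrays. Its 4 other probe sets differed by -0.88 to -1.94 on LSK day 1 and by -0.99 to -3.56 on LSK day 2, and none was called with probe sets tested on their own, where the day 1 call was also lost (adjusted p = 0.0531). The day 1 call of Prrx1 held in 3 of 13 fits that left out a single array, and the day 2 call in 8 of 13. Srf itself measured 8.31 to 10.56 over the 13 arrays and Mrtfa 7.67 to 12.02, while Myocd stayed near the lowest value.

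Among 16 genes of myosin phosphorylation, 14 were tested and Rhoa was called. Rhoa encodes a small GTPase that controls the actin cytoskeleton. It was lower in LSK day 1 stroma, with 10.50, 10.47 and 10.47, than in the medium control, with 11.44 and 11.64. The log2 difference was -1.06 ± 0.20 (adjusted p = 0.025 in limma). The day 0 arrays lay between, at 11.30, 10.84 and 10.71. From day 0 the medium control differed by 0.59 and LSK day 1 by -0.47, neither of them called. Quantile scaling lost the call of Rhoa against the medium control (adjusted p = 0.0587 in limma). The call held in 8 of 13 fits that left out a single array, and its other probe set gave -0.99 with an adjusted p of 0.84. Among 22 genes of dense plaques and cytoskeletal linkers, 20 were tested and none was called in any comparison. On LSK day 2 against day 0, the median log2 difference was -0.33 for the relatives, -1.44 for the regulators, -0.48 for the phosphorylation genes and -0.63 for the linkers, against -0.29 over all genes and -1.34 for the tested members.

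The 7 tested members varied together to unequal degrees over the 13 arrays. Pearson's r between pairs ran from 0.218 for Acta2 and Lmod1 to 0.909 for Tagln and Tpm1, as a description over arrays that share groups, RNA quality and cell mix. The mean of their standardised levels was 0.78, -0.31 and -0.16 on the LSK day 1 arrays and 0.96 and 0.90 in the medium control. At day 0 that mean was 0.58, 0.26 and 0.03. On LSK day 2 it was -1.64, -1.46 and 0.46, and on LSK day 3 -0.16 and -0.24. Of 12185 other genes, Dlk1, a transmembrane protein related to Notch ligands, was most like that mean, with r = 0.957 over 13 arrays. It was followed by Tnpo1 (0.941), Zbtb25 (0.940), Selenon (0.939) and Isca1 (0.938). The lowest r values belonged to Setd4 (-0.936), Ptms (-0.934) and Mycbp (-0.914). Dlk1 measured 11.45, 9.54 and 10.33 in LSK day 1 stroma, 12.05 and 11.96 in the medium control and 11.71, 11.40 and 10.19 at day 0. On LSK day 2 it measured 4.78, 5.95 and 10.43, so the same replicate 3 stood above its group.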

How the data were processed

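Affymetrix mouse arrays of 13 samples were used as the authors deposited them, as log2 values per probe set. RMA and GCRMA are named per the submitters' processing notes, with no version and no statement of which made the values. The lowest value, 2.28, takes 31.2% to 43.8% of the probe sets of an array, so changes near it are bounded. Scanner files were not used here. Of 45101 probe sets, 64 controls were set aside and 34945 had 1 gene symbol in the platform annotation, 932 several and 9160 none; 34741 of the named ones matched RefSeq and no symbol changed. A gene was kept if its probe set exceeded 2.38, the median of all values, on at least 2 arrays.

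Group means were fitted with limma 3.58.1 (R 4.3.3) on all 13 arrays, with eBayes and Benjamini-Hochberg adjustment over 12205 genes and a threshold of 0.05. The fit was tested on simulated data in which each gene had the same spread on all arrays. That test does not cover the unequal spread between arrays seen here. Figures used Python 3.11.15 and matplotlib 3.10.9. Members and lists were chosen with earlier results of these data known. All members are named, with up to 3 called genes of each of 4 companion lists and the 5 most and 3 least similar genes. Same-numbered replicates were checked for pairing. The number of arrays limits the precision. Alternatives changed the filter, scaling, probe set choice, variance model, weights, samples and replicate block.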

Additional observations from a re-analysis of the deposited data

How the results depend on the processing

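No tested member passed the threshold in any of the 7 comparisons as reported, and 162 of 175 counts under 25 alternative settings were also 0. Array weights gave 3 members for medium day 1 against day 0, 1 for LSK day 1 against day 0, 3 for LSK day 2 against day 0, 6 for LSK day 1 against medium and 1 for LSK day 2 against LSK day 1, in fits that called 29.4%, 29.4%, 20.8%, 52.6% and 10.4% of all genes. These weights follow the scatter of arrays around their group means and are no reading of RNA quality. They gave 0.039 to LSK day 2 replicate 1 and 6.66 to each medium array. Fitting only the groups compared gave 3 members for LSK day 1 against medium, with 37.5% of all genes called. Leaving out single arrays gave 0 to 4 members for LSK day 2 against day 0, 0 to 1 for LSK day 3 against day 0, 0 to 3 for LSK day 2 against LSK day 1 and 0 to 0 in the other 4 comparisons, with every count above 0 coming from the removal of LSK day 2 replicate 3. Leaving out the 2 or 3 arrays with the widest beta-actin gap was chosen after seeing the data. Both fits leave LSK day 3 with a single array, and the second also LSK day 2. The other counts above 0 came from these fits, for LSK day 1 against medium and for LSK days 1 and 3 against day 0. The replicate block gave 0 members in all 7 comparisons. Over 23 same-numbered pairs, correlations of deviations ran from -0.371 to 0.261 and 8 were over 0.1. Deviations within groups of 2 or 3 arrays depend on each other, so this check cannot decide whether arrays were paired.

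Of the 49 single differences, none reversed as a called value, and 58 values of uncalled differences changed sign under an alternative. Acta2, Tpm2, Myl9 and Lmod1 did so under another scaling in at least 1 comparison, and Tagln, Tpm1 and Cald1 in none. Counts over all genes moved more. As reported they were 40, 263, 276, 100, 635, 1 and 1, in the order medium, LSK day 1, day 2 and day 3 against day 0, LSK day 1 against medium, and days 2 and 3 against LSK day 1. Without single arrays they ran over 8 to 166, 9 to 1290, 26 to 3497, 4 to 939, 7 to 2103, 0 to 1887 and 0 to 106. Quantile scaling gave 372 higher and 320 lower genes for LSK day 1 against medium, against 263 and 372 as reported, 154 and 145 for LSK day 1 against day 0, against 101 and 162, and 105 and 123 for LSK day 2 against day 0, against 78 and 198. The cause of these shifts was not tested.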
